A study of Mus musculus with 10 samples.

Results

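Decorin and its relatives are small leucine-rich proteoglycans, secreted matrix proteins built on a solenoid of leucine-rich repeats, and 8 genes of the family were followed here among the 45786 genes measured. They were Dcn (decorin), Lum (lumican), Bgn (biglycan), Ogn (osteoglycin, also called mimecan), Fmod (fibromodulin), Aspn (asporin), Prelp (prolargin) and Podn (podocan). They were chosen by family, and on levels in irradiated and control lungs that were already known, so every difference of theirs between irradiated and control pools is a description and carries no test. Transcripts were sequenced from whole-lung cell suspensions of C57BL/6J mice, a standard inbred strain, whose whole chest had been exposed to 12.5 Gy of γ-rays. The control mice had received 0 Gy and were of the same age. Sampling was at 24 hours and then after 1, 4, 12 and 32 weeks. Each time and treatment had 1 pool holding RNA of 3 mice, which gave 5 irradiated and 5 control libraries and no replicate pool at any time. The age and sex of the mice are not stated in the labels.

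In the extracellular matrix, decorin, lumican and fibromodulin bind the surface of collagen fibrils and govern how thick and how evenly spaced the fibrils become. Decorin and biglycan carry chondroitin or dermatan sulfate chains and bind transforming growth factor β, and soluble biglycan is also a ligand of toll-like receptors. In the lung these genes are transcribed chiefly by fibroblasts and other mesenchymal cells, and decorin is a widely used fibroblast marker. In a bulk suspension, fewer cells of a type and less RNA per cell cannot be told apart.

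The labelled tissue carried the markers of lung. Summed over 5 alveolar type 2 markers, surfactant genes included, the level was 22378 to 39738 CPM, the count scaled to a common library total in controls and 6788 to 54997 in irradiated pools. For 3 club cell markers it was 3520 to 13134 CPM in controls and 3614 to 18447 in irradiated pools, and for 6 endothelial markers 391 to 790 and 331 to 856 CPM. None of 15 fibroblast markers was at 0 in any pool. Libraries held 8678820 fragments (12-week control) to 17471930 (4-week irradiated pool). All 8 genes passed the filter on low counts, with 53 (Fmod, 12-week control) to 13954 (Dcn, 1-week control) fragments.

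In the mouse genome (GRCm38, GENCODE M21 gene models), 6 of the 8 genes lie in 3 pairs. Dcn (ENSMUSG00000019929, chr10:97479609-97518143, plus strand) and Lum (ENSMUSG00000036446, chr10:97565128-97572703, plus strand) are 47.0 kb apart with 0 coding genes between them. Aspn (ENSMUSG00000021388, chr13:49544443-49567565, plus strand) and Ogn (ENSMUSG00000021390, chr13:49608046-49624501, plus strand) are 40.5 kb apart, with the related gene Omd (osteomodulin) between them. Prelp (ENSMUSG00000041577, chr1:133910304-133921414, minus strand) and Fmod (ENSMUSG00000041559, chr1:134037254-134048277, plus strand) are 116 kb apart with 0 coding genes between them. Bgn (ENSMUSG00000031375, chrX:73483602-73495933, plus strand) and Podn (ENSMUSG00000028600, chr4:108014791-108096445, minus strand) have no such partner. Because the library chemistry does not mark strand, fragments from bases shared by genes on opposite strands cannot be told apart. Overlap was taken from whole gene spans, and exons were not compared. Aspn and Ogn lie inside Cenpp on the opposite strand (0.922 to 3.63 CPM), and Prelp overlaps the antisense gene Gm15851 (3.79 to 11.4 CPM). Podn overlaps Scp2 on the same strand (330 to 477 CPM), so the Podn count is uncertain.

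RefSeq promoter windows of GRCm38.p6 were available for 6 of the 8 genes. The 250 bases upstream of the start are shown for Aspn and Ogn, as neighbours whose levels differed over the pools, and for Ogn, Prelp and Bgn, whose levels moved together. Capitals mark, on either strand, TATAAA, the GC box GGGCGG, the AP-1 motif TGANTCA and CCAAT, and overlapping matches were all counted.
Aspn, chr13:49544193-49544442, plus strand: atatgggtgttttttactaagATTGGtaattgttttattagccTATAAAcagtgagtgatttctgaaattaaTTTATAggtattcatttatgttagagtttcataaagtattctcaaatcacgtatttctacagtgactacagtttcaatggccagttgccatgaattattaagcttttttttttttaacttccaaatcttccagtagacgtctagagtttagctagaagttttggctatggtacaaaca
Ogn, chr13:49607765-49608014, plus strand: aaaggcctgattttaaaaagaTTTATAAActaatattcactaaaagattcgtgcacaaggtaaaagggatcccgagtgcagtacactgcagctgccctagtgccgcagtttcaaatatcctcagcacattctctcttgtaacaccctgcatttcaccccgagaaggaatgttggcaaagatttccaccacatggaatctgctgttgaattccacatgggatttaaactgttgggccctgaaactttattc
Prelp, chr1:133921402-133921651, minus strand: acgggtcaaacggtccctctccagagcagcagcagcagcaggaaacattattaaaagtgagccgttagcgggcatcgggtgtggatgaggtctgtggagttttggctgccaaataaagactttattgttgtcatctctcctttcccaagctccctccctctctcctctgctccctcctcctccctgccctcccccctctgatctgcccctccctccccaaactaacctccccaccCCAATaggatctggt
Bgn, chrX:73483351-73483600, plus strand: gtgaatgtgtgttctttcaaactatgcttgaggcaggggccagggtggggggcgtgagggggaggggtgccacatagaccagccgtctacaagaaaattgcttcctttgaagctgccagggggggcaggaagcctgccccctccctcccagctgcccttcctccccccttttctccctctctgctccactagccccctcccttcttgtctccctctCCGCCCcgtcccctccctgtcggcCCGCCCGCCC
The neighbours Aspn and Ogn both held 2 TATAAA matches, which 12.4% of 32851 promoters of this length hold at least 1 of. In Aspn they began 207 and 178 bases upstream of the start, and in Ogn 229 and 227 bases upstream, overlapping each other. Bgn held 3 GC boxes, 34, 10 and 6 bases upstream (32.7% of promoters hold 1 or more), and Prelp held 1 CCAAT 15 bases upstream (33.8%). None of the 7 windows of these 6 genes held TGANTCA, which 6.75% of promoters hold. The GC content ran from 30% in Aspn and 42% in Ogn to 55.6% in Prelp and 64.4% in Bgn, against a median of 52.4% over all promoters. No motif was shared by Ogn, Prelp and Bgn.

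Levels of different genes were compared per length, as the authors' FPKM (fragments scaled by transcript length and library total). In the 5 controls Dcn was the most abundant of the 8 at 238 ± 62.1 FPKM (SD, n = 5 pools of different ages), followed by Bgn at 54.3 ± 11.4, Ogn at 25.5 ± 3.43 and Prelp at 18.3 ± 3.60. Podn stood at 6.70 ± 2.58 FPKM, Lum at 6.14 ± 2.12, Aspn at 2.68 ± 1.40 and Fmod at 1.83 ± 0.473. The control ranges of Dcn and Bgn, of Bgn and Ogn, and of Prelp and Podn did not overlap. Those of Ogn and Prelp, Podn and Lum, Lum and Aspn, and Aspn and Fmod did overlap. Within each control library, Ogn still stood above Prelp (ratio 1.13 to 1.59) and Lum above Aspn. Podn and Lum, and Aspn and Fmod, changed places between controls.

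The levels of each gene by pool follow in CPM, always in the order 24 hours, 1, 4, 12 and 32 weeks. Dcn, the collagen-binding class I member and the most abundant transcript of the family, was at 875, 880, 492, 900 and 699 CPM in controls and at 1017, 704, 432, 489 and 207 CPM in irradiated pools. Its level in irradiated lungs was above every control at 24 hours and below every control at 4, 12 and 32 weeks, at 12 weeks by 489 against 492 CPM. In FPKM the 12-week pool lay inside the control range (167 against a lowest control of 147). The 4-week control was itself the lowest control, so the difference from the matched control at 4 weeks was small. Against the control of the same time, the log2 fold (prior count 2) was 0.22, −0.32, −0.19, −0.88 and −1.76. From FPKM the value at 4 weeks was −0.0038 and that at 32 weeks −1.48. At 32 weeks the CPM fold is 3.38-fold lower, with a 95% interval of −1.82 to −1.70 on the log2 scale that covers counting error only.

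Bgn, the closest relative of Dcn, was at 228, 172, 208, 175 and 159 CPM in controls and at 214, 226, 141, 166 and 106 CPM in irradiated pools. The irradiated pools of 4 and 32 weeks were below all 5 controls in CPM, at 4 weeks not in FPKM (41.9 against a lowest control of 38.6), and the other 3 lay inside the control range. The matched log2 folds were −0.09, 0.39, −0.56, −0.07 and −0.59, with −0.20 at 32 weeks from FPKM, so the differences of Bgn at 12 and 32 weeks were smaller in size than those of Dcn. Aspn, the third class I gene, whose product binds collagen and carries a stretch of aspartates, was at 15.8, 19.2, 8.24, 19.2 and 4.82 CPM in controls and at 22.7, 19.8, 8.75, 6.12 and 6.73 CPM in irradiated pools. Its controls themselves spread over a wide range, and the lowest of all 10 pools was the 32-week control. The matched log2 folds of Aspn were 0.52, 0.04, 0.09, −1.62 and 0.47, with the 12-week pool low and no irradiated pool outside the controls on the low side.

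Lum, a class II member that carries keratan sulfate in cornea and regulates fibril spacing, was at 26.7, 33.2, 14.9, 27.6 and 18.6 CPM in controls and at 27.9, 19.2, 13.51, 18.2 and 9.05 CPM in irradiated pools. It had the same shape as Dcn, its neighbour on chromosome 10, with the 4-week control lowest among controls and the 32-week irradiated pool lowest of all. The matched log2 folds of Lum were 0.06, −0.78, −0.14, −0.60 and −1.03, and from FPKM the value at 4 weeks was 0.04. Fmod, a collagen cross-linking modulator, was at 13.2, 10.1, 12.7, 6.20 and 11.7 CPM in controls and at 12.7, 14.3, 5.37, 13.7 and 13.0 CPM in irradiated pools. Here the irradiated lung was low at 4 weeks alone, and the 32-week pool lay inside the control range. The matched log2 folds of Fmod were −0.05, 0.51, −1.22, 1.13 and 0.15, and the value at 12 weeks rests on a 12-week control with 53 fragments.

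Prelp, whose product anchors basement membranes to the underlying connective tissue, was at 105, 82.9, 141, 81.7 and 112 CPM in controls and at 127, 139, 69.7, 83.1 and 61.7 CPM in irradiated pools. Ogn, a class III member, was at 145, 99.0, 139, 114 and 138 CPM in controls and at 146, 141, 68.2, 109 and 72.3 CPM in irradiated pools. Both genes were higher than the matched control at 1 week, below all controls at 4 weeks, near the matched control at 12 weeks and below all controls again at 32 weeks. The matched log2 folds were 0.28, 0.74, −1.01, 0.02 and −0.85 for Prelp, with −0.50 at 32 weeks from FPKM. For Ogn they were 0.01, 0.51, −1.03, −0.06 and −0.93. Podn, a class V member that restrains smooth muscle cell growth in mouse arteries, was at 29.7, 27.2, 16.0, 18.6 and 19.6 CPM in controls and at 31.3, 46.5, 29.0, 26.0 and 11.5 CPM in irradiated pools. It differed from the rest in being higher than the matched control at 1, 4 and 12 weeks, with log2 folds of 0.08, 0.77, 0.85, 0.48 and −0.77. From FPKM the fold of Podn was 1.08 at 12 weeks and −0.32 at 32 weeks.

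**Figure D1:**
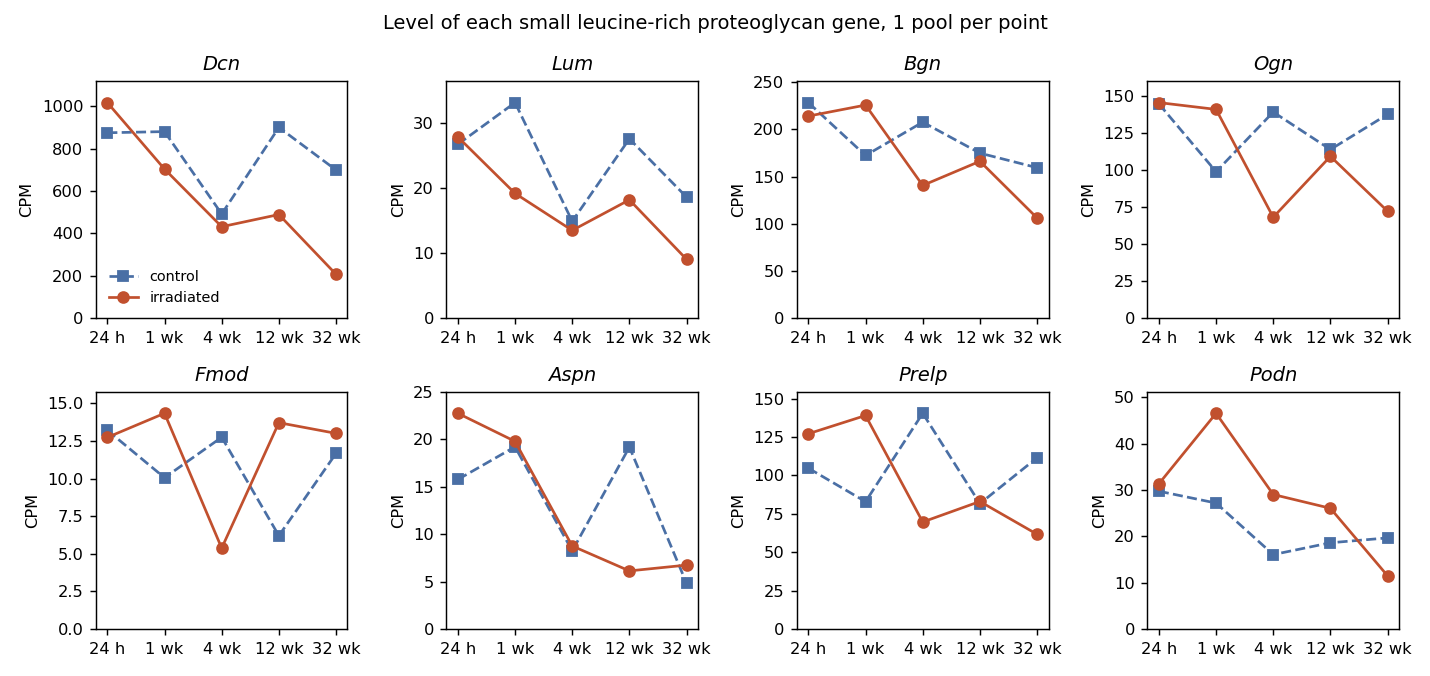
Level of each of the 8 genes in CPM (y axis, from 0) against time after irradiation (x axis, evenly spaced), with 1 pool of 3 mice per point, squares and dashed lines for controls and circles and solid lines for irradiated lungs. Dcn and Lum share a low 4-week control and a low 32-week irradiated pool, Ogn and Prelp share low irradiated pools at 4 and 32 weeks, and Podn lies above its controls from 24 hours to 12 weeks.

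Counted by time, 6 of the 8 genes were higher and 2 lower than the matched control at 24 hours, with a median log2 fold of 0.07, and again 6 and 2 at 1 week, with a median of 0.45. At 4 weeks 2 were higher and 6 lower (median −0.37), at 12 weeks 3 and 5 (median −0.07), and at 32 weeks 2 and 6 (median −0.81). Over all 15625 genes tested, 50.4%, 47.4%, 46.8%, 50.0% and 48.2% were lower than the matched control at the 5 times in order, with medians of 0.03 at 4 weeks and 0.02 at 32 weeks.

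Set against all 5 controls, 0 of the 8 genes at 24 hours lay below every control and 4 above (Dcn, Ogn, Aspn and Podn), while of all genes 21.2% lay below and 22.1% above. At 1 week the numbers were 0 below and 3 above (Fmod, Aspn and Podn), beside 18.8% and 22.6% of all genes. At 4 weeks 6 lay below (Dcn, Lum, Bgn, Ogn, Fmod and Prelp) and 0 above, beside 16.8% and 19.1%. At 12 weeks 1 lay below (Dcn) and 1 above (Fmod), beside 21.5% and 21.9%. At 32 weeks 6 lay below (Dcn, Lum, Bgn, Ogn, Prelp and Podn) and 0 above, beside 23.3% and 25.5%. In FPKM, a comparison added after the data were seen, the genes below were 4 at 4 weeks (Dcn, Ogn, Fmod and Prelp), 0 at 12 weeks and the same 6 at 32 weeks, and those above were 6 at 24 hours, 4 at 1 week, and Fmod at 12 and at 32 weeks.

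Markers of other cells also differed from the matched control in these pools. At 32 weeks 5 of 5 alveolar type 2 markers were lower than the matched control (median log2 fold −0.86), 3 of 3 club cell markers were higher (0.67) and 5 of 5 red cell markers were higher (1.71). At 4 weeks 4 of 5 alveolar macrophage markers were lower (−1.59) and 5 of 5 red cell markers higher (0.57). Against the 5 controls together, 5 of 5 red cell markers were instead lower at 32 weeks (median log2 difference −0.65) and at 4 weeks (−0.54). Their summed level in the 32-week irradiated pool, 22270 CPM, lay inside the control range of 7518 to 68796 CPM. The lowest control was that of 32 weeks. The part of all these markers in the levels of the 8 genes was not tested.

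Across the whole table, edgeR's quasi-likelihood test of each irradiated pool against the 5 controls put 1.06% of genes past an adjusted p of 0.05 at 24 hours, 0.0192% at 1 week, 0.0576% at 4 weeks, 0% at 12 weeks and 0.826% at 32 weeks. Of the 8 genes 0 were among them at the first 4 times, and 1 at 32 weeks, Dcn, with a log2 difference of −1.89 ± 0.34 (SE) from the 5 controls. At 32 weeks 0.25% of all genes were past the threshold on the low side. Since the genes were chosen on this contrast, nothing is read from that count. Dcn was no longer past it when the 24-hour, the 1-week, the 12-week or the 32-week control was left out, although the log2 difference stayed between −1.93 and −1.83. With all controls, 1855, 1484, 1125, 1669 and 2556 of the 15625 genes had an unadjusted p under 0.05 in edgeR's test at the 5 times in order.

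With the 5 times in a single fit and time as a block, 0% of genes passed, and 1732 had an unadjusted p under 0.05. The log2 difference over the 5 times was −0.58 ± 0.25 (SE) for Dcn and −0.49 ± 0.19 for Lum, both lower in 4 of 5 pairs of pools. For Bgn it was −0.18 ± 0.15, also lower in 4 of 5 pairs, and for Ogn −0.30 ± 0.22, lower in 3. Prelp (−0.16 ± 0.25), Aspn (−0.08 ± 0.31), Fmod (0.11 ± 0.31) and Podn (0.30 ± 0.24) were lower in 2, 1, 2 and 1 of 5 pairs. The sign turned for Fmod and Aspn without the 12-week pools (−0.14 and 0.28) and for Prelp without the 4-week pools (0.05) or the 32-week pools (0.02).

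**Figure D2:**
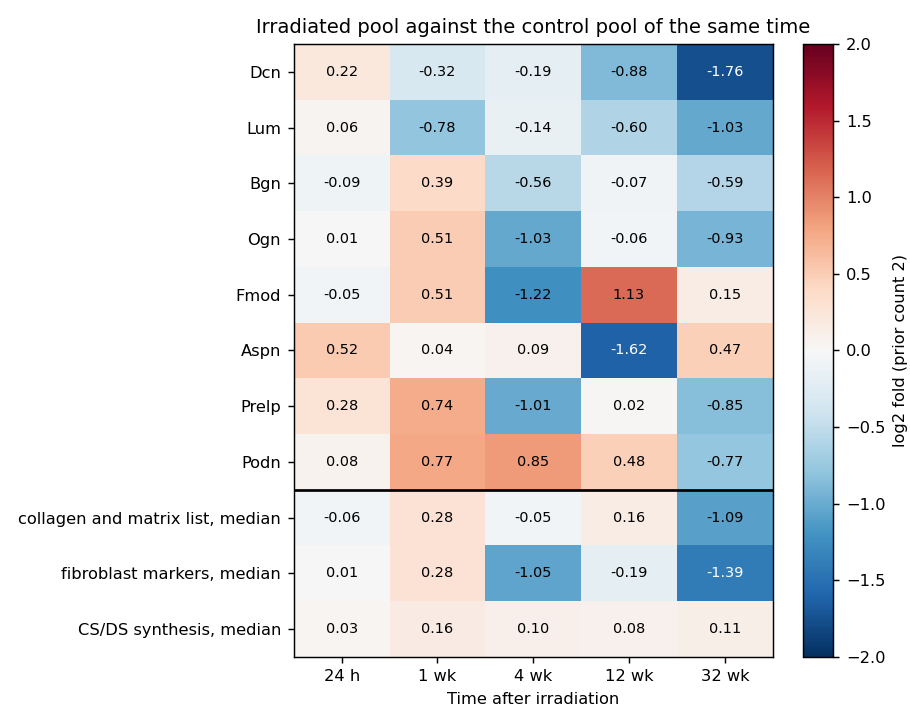
Log2 fold of each irradiated pool over the control pool of the same time (colour and number), for the 8 genes above the line and the medians of 3 gene lists below it, with time after irradiation on the x axis. The 32-week column is negative for 6 of the 8 genes and for the medians of the collagen and fibroblast lists, −1.09 and −1.39, while the chondroitin and dermatan sulfate (CS/DS) synthesis list stands at 0.11.

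The slope with time in unirradiated lung is another measure than the contrast on which the genes were chosen, although the same controls enter both. It was fitted over log2 days on all 10 pools, with a separate mean and slope for each treatment, so the spread came from both treatments. For the slope in controls edgeR called 0% of genes, with 673 at an unadjusted p under 0.05, of which 0 were among the 8. The slope was −0.03 ± 0.05 log2 units per doubling of time for Dcn (SE, adjusted p = 0.998), −0.05 ± 0.03 for Bgn and −0.07 ± 0.06 for Lum. For Aspn it was −0.12 ± 0.09 and for Podn −0.09 ± 0.06, and for Fmod −0.05 ± 0.07, Ogn −0.01 ± 0.04 and Prelp 0.01 ± 0.05. All 8 had an adjusted p of 0.998, so no slope in controls was detectable beyond the spread between pools.

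In the irradiated pools the slope per doubling of time was −0.25 ± 0.05 for Dcn, −0.27 ± 0.08 for Aspn and −0.16 ± 0.06 for Lum. It lay between −0.12 and −0.17 for Bgn, Ogn, Prelp and Podn and was −0.01 ± 0.07 for Fmod. The difference between the 2 slopes was largest for Dcn at −0.22 ± 0.05, and 0% of all genes passed the test of that difference, with 1095 at an unadjusted p under 0.05.

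The make-up of the family differed between pools along with its sum. Summed over the 8 genes, controls held 417, 401, 272, 381 and 293 FPKM and irradiated pools 480, 375, 232, 282 and 144 FPKM. Decorin made up 66.6%, 71.2%, 53.9%, 73.0% and 67.8% of that sum in controls and 69.7%, 59.5%, 63.0%, 59.4% and 49.5% in irradiated pools. The share in the 32-week irradiated pool was the lowest of the 10, with the 4-week control next. The ratio of Dcn to Bgn ran from 2.34 (4-week control) to 5.64 (12-week control) in controls and was 5.24, 3.26, 3.49, 3.07 and 2.12 in irradiated pools. Dcn to Lum stayed closer, between 32.4 and 45.6 in controls and between 28.0 and 45.1 in irradiated pools.

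**Figure D3:**
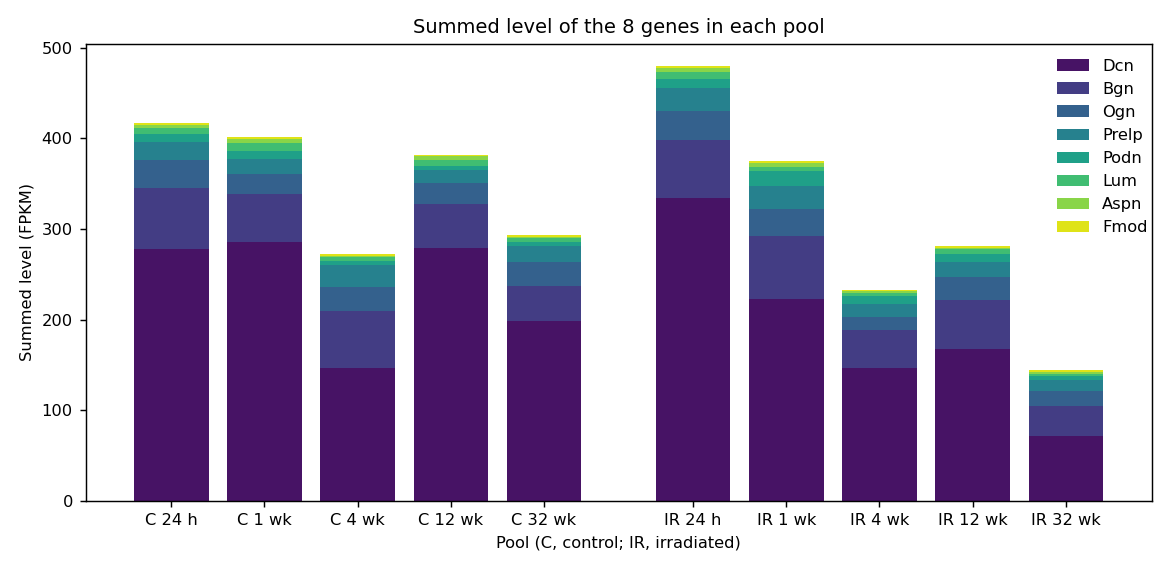
Summed level of the 8 genes in each pool in FPKM (bar height, from 0), split by gene, with the 5 control pools (C) on the left and the 5 irradiated pools (IR) on the right. The 32-week irradiated bar is the shortest at 144 FPKM, and the part missing from it is mostly Dcn.

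Over the 10 pools some of the genes had like patterns. Pearson's r of log2 CPM was 0.95 between the neighbours Dcn and Lum, 0.90 between Ogn and Prelp, which lie on different chromosomes, and 0.86 between Bgn and Ogn. These values describe 10 pools that share their libraries and their time course. The 4-week control set the patterns apart: it held the lowest Dcn and Lum of the 5 controls, and also the highest Prelp and the second highest Ogn, Bgn and Fmod. The neighbours Ogn and Aspn went opposite ways in controls, with Aspn highest and Ogn lowest at 1 and 12 weeks, but in irradiated pools both were higher at 24 hours and 1 week than at 4 and 32 weeks.

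Among 10059 genes with a mean of at least 10 CPM, the 8 left aside, the pattern most like that of Dcn over the 10 pools was that of Islr, an immunoglobulin-domain leucine-rich repeat gene of mesenchymal cells (r = 0.98). Next came Gfpt2 (0.97), which makes the precursor of amino sugars, Gdf10 (0.97), a bone morphogenetic protein relative, and Scara5 (0.97), a ferritin receptor of fibroblasts. Col14a1 (0.96), a fibril-associated collagen, Serpinf1 (0.96), Pamr1 (0.96), Scara3 (0.95), the chemokine gene Cxcl12 (0.94) and Rcn1 (0.94) completed the 10. Lum, with 0.95, would stand among them. The 5 genes most like Bgn were Scn7a (0.97), Fbn1 (0.97), which encodes the microfibril protein fibrillin-1, Cdc42ep2 (0.96), Pcolce2 (0.95), an enhancer of procollagen processing, and Kdelr3 (0.95). None of the 10 genes most like Dcn was among the 5 most like Bgn.

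Like 6 of the 8 genes at either time, most fibroblast markers were lower than the matched control at 4 and at 32 weeks. In controls they did not follow Dcn, whose highest control was that of 12 weeks, where the mean of the markers was lowest. The mean log2 CPM of 15 fibroblast markers was 5.76, 5.24, 5.76, 4.99 and 5.52 in controls and 5.69, 5.57, 4.79, 4.89 and 4.16 in irradiated pools. At 4 weeks 15 of 15 markers were lower than the matched control (median log2 fold −1.05) and at 32 weeks 14 of 15 (median −1.39). Against the 5 controls, edgeR called 3 of the 15 at 32 weeks, all on the low side, where 0.25% of all genes were called. The list was chosen with earlier results of these data known. Scara5 fell by 2.38 ± 0.40 on the log2 scale (SE, adjusted p = 0.036), Mfap5, which encodes a microfibril protein, fell by 1.90 ± 0.35 (adjusted p = 0.0454) and Meox2, a homeobox gene, fell by 2.42 ± 0.44 (adjusted p = 0.0436). The 3 calls were lost without the 24-hour, the 1-week or the 12-week control, with adjusted p between 0.056 and 0.0993, and that of Meox2 also without the 32-week control (0.0527) or with total count scaling (0.06). The log2 differences stayed between −1.77 and −2.47 without those 3 controls. With limma on log2 FPKM all 3 missed the threshold, with adjusted p between 0.0581 and 0.0813. Relative to the mean of the 15 markers, Dcn was 16.1, 23.3, 9.06, 28.4 and 15.2 times as high in controls and 19.7, 14.8, 15.6, 16.5 and 11.6 times in irradiated pools. On this scale each irradiated pool lay inside the control range, but the low end of that range was the 4-week control alone. The irradiated pools of 1 week and 32 weeks lay below all the other controls.

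The fibroblast markers did not all follow the same course. In a division made after their values were seen, 5 are known from adventitial fibroblasts around vessels and airways (Pi16, Dpt, Mfap5, Clec3b and Scara5). Their mean log2 CPM was 6.22, 5.93, 5.42, 5.45 and 5.45 in controls and 6.32, 5.78, 4.93, 4.91 and 3.76 in irradiated pools. The 32-week irradiated pool was lowest, as for Dcn, Lum, Bgn, Prelp and Podn, and as for the alveolar markers given below. Below every control lay 5 of 5 of these markers at 4 weeks, 4 of 5 at 12 weeks and 5 of 5 at 32 weeks, beside 16.8%, 21.5% and 23.3% of all genes. In controls 3 of the means lay close together, and Scara5 alone of the 5 had its lowest control at 4 weeks, as Dcn had. Another 9 are known from alveolar fibroblasts (Tcf21, Col13a1, Npnt, Inmt, Limch1, Meox2, Wnt2, Mfap4 and Pdgfra). Their mean was 5.80, 5.18, 6.16, 4.97 and 5.72 in controls and 5.74, 5.86, 4.93, 5.13 and 4.56 in irradiated pools. Like Prelp and Ogn, these were higher than the matched control at 1 week (9 of 9 markers) and lower at 4 weeks (9 of 9). The 4-week control was the highest of the controls, as for Prelp. Below every control lay 3 of 9 at 4 weeks, 3 of 9 at 12 weeks and 6 of 9 at 32 weeks. The mean matched log2 difference of the alveolar markers was 0.68 at 1 week, −1.23 at 4 weeks, 0.16 at 12 weeks and −1.16 at 32 weeks. For the adventitial markers it was −0.15, −0.49, −0.54 and −1.69 at these times. Thy1, the remaining fibroblast marker, was placed in neither set and was lower than the matched control at every time, also at 1 week. What part the number of fibroblasts of either kind has in the levels of the family was not tested.

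**Figure D4:**
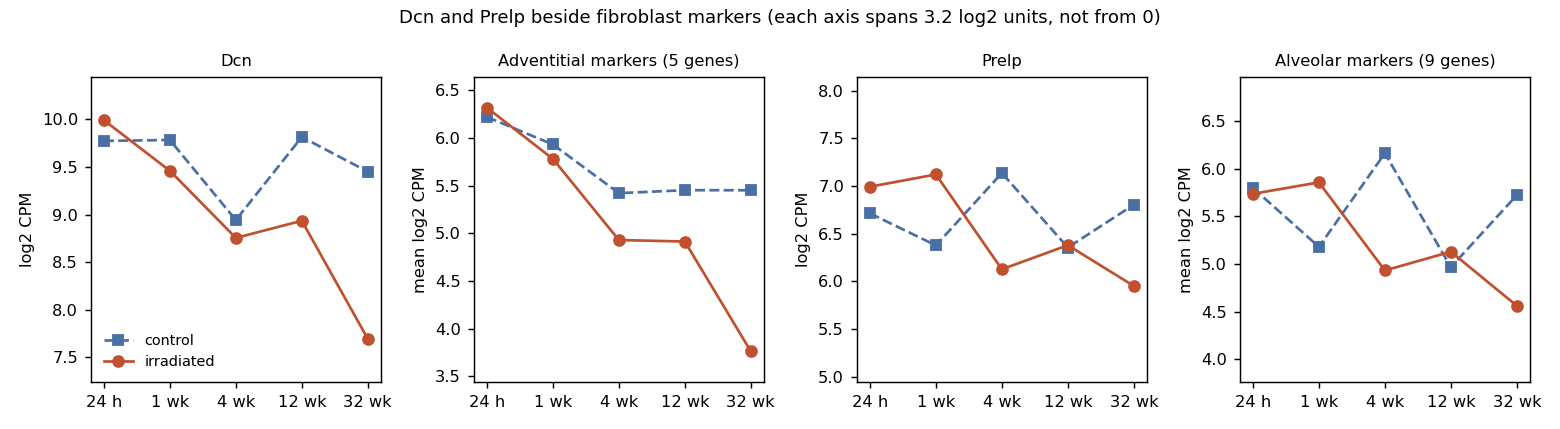
Log2 CPM of Dcn and of Prelp, and mean log2 CPM of 5 adventitial and 9 alveolar fibroblast markers, against time after irradiation, with 1 pool per point, squares for controls and circles for irradiated lungs. The axes do not start at 0 and each spans 3.2 log2 units. The 32-week irradiated pool is lowest in all 4 panels, and the 4-week control is the highest control for Prelp and the alveolar markers and the lowest for Dcn.

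Other stromal markers moved as well. Of 6 pericyte markers 6 were lower than the matched control at 4 weeks (median log2 fold −0.66) and 6 at 32 weeks (−0.59). Of 6 smooth muscle markers 6 were lower at 4 weeks (−0.76) and 4 at 32 weeks (−0.67). The mean log2 CPM of the pericyte markers lay below all 5 controls at 4, 12 and 32 weeks (1.89, 1.86 and 1.51). That of the smooth muscle markers lay inside the control range at 4 and 32 weeks (2.71 and 1.95), and the lowest of the 10 pools was the 12-week control (1.63). Mean log2 CPM over 6 mesothelial markers was 4.73, 3.93, 4.04, 3.72 and 3.71 in controls and 4.74, 4.91, 4.47, 4.30 and 3.40 in irradiated pools, higher than the matched control at 1, 4 and 12 weeks, as Podn was. Smooth muscle markers lay at 1.63 to 3.50 in controls and 1.95 to 3.31 in irradiated pools, and pericyte markers at 2.05 to 2.80 and 1.51 to 2.58. Of 10 airway cartilage markers 2 passed the filter on low counts, Col11a2 and Hapln1. Matn3 was at 0 in 10 pools and Col2a1 in 9, while Col11a2 reached 41, Comp 31 and Hapln1 29 fragments in single pools. The part of the cartilage, mesothelial, smooth muscle and pericyte markers in the levels of the family was not tested.

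The collagens that these proteoglycans coat were also low at 32 weeks. Of 12 genes for fibrillar collagens and bound matrix, 11 were lower than the matched control at 32 weeks, with a median log2 fold of −1.09. In edgeR's test 0 passed there or at any other time. At 32 weeks 9 had an unadjusted p under 0.05, as had 2556 of all 15625 genes. DESeq2 called 7 of the 12 there, and 831 of all genes. In controls the slope with time was negative for 12 of the 12 (median −0.13 per doubling of time), with 8 at an unadjusted p under 0.05 and 0 past the threshold in edgeR, and DESeq2 called Col3a1. The medians at the earlier times were −0.06, 0.28, −0.05 and 0.16. Col1a1, which encodes the α1 chain of type I collagen, was at 131 CPM in the 32-week control and 57.7 CPM in the irradiated pool. For Col3a1, of type III collagen, these levels were 414 and 262 CPM. In the 12-week pair both were higher in the irradiated pool, at 154 against 97.8 CPM for Col1a1 and 752 against 506 CPM for Col3a1. Dcn was at 489 against 900 CPM in that pair. The 12-week control was the lowest control for Col1a1, and both irradiated values lay inside the control ranges. Against the 5 controls, 11 of the 12 genes were lower at 12 weeks, with a median log2 difference of −0.30. Fbn1 (log2 fold −1.15 at 32 weeks) and Col5a2 (0.33) were the 2 genes of the list with the smallest p over the 5 times.

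The enzymes that build the chains of these proteins went both ways. Of 23 genes for chondroitin and dermatan sulfate synthesis 0 passed edgeR's test in any comparison. At most 4 had an unadjusted p under 0.05, at 32 weeks, where 2556 of all 15625 genes did. DESeq2 called Csgalnact1 at 12 weeks and Dsel and Ust at 32 weeks. Lower than the matched control were 11, 6, 7, 9 and 10 of the 23, and the median log2 fold was 0.03, 0.16, 0.10, 0.08 and 0.11 over the 5 times. Dse, the epimerase that makes dermatan sulfate, stood at 50.7 ± 14.4 CPM in controls and 62.3 ± 11.7 CPM in irradiated pools (SD, n = 5 each) and was higher in 5 of 5 pairs, as 6.75% of all genes were, with 0.31 ± 0.11 (SE) on the log2 scale over the 5 times (edgeR adjusted p = 0.337). Xylt1, which starts the chain by adding xylose to the core protein, stood at 5.23 ± 1.21 and 8.18 ± 1.35 CPM, also higher in 5 of 5 pairs (0.64 ± 0.24, edgeR adjusted p = 0.381). Neither difference passed the threshold. Of 6 measured genes for keratan sulfate synthesis, the chain of lumican and fibromodulin, 0 passed, with at most 1 at an unadjusted p under 0.05 in any comparison and 0 by DESeq2, and with medians of −0.17, 0.36, −0.31, 0.06 and 0.36. B4galt1, a galactosyltransferase, was at 88.0 ± 9.56 CPM in controls and 99.5 ± 15.05 in irradiated pools, and the sulfotransferase gene Chst4 was at 5.56 ± 2.80 and 6.90 ± 2.28 CPM.

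Partners and processing enzymes were tested as further lists. Of 14 measured genes for ligands and receptors bound by decorin or biglycan 0 passed edgeR's test in any comparison, with at most 3 at an unadjusted p under 0.05 and 0 by DESeq2, and with medians of 0.16, 0.38, −0.09, 0.26 and 0.34. Lrp1, an endocytic receptor of decorin, was at 356 ± 58.5 CPM in controls and 426 ± 93.3 in irradiated pools, and Tlr4, a receptor of soluble biglycan, at 57.0 ± 13.4 and 75.4 ± 24.0 CPM. Both were higher than the matched control at 24 hours. Another 12 measured genes were for proteases that process or cleave small proteoglycans, with Pcolce, an enhancer of procollagen processing, among them. Of these 12 genes 0 passed edgeR's test, with at most 4 at an unadjusted p under 0.05 in any comparison. DESeq2 called Mmp2 at 24 hours and Mmp3 and Pcolce at 32 weeks. The medians were 0.37, 0.37, −0.13, −0.11 and −0.29. Mmp2, a gelatinase made by fibroblasts, was at 177 CPM in the 24-hour irradiated pool against 118 in its control, and at 56.4 against 80.2 CPM at 32 weeks. Adamts4, an aggrecanase gene, had at most 2.01 CPM in any pool.

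Of 20 other proteoglycan genes that were measured, 1 passed edgeR's test. Sdc3, which encodes the membrane heparan sulfate proteoglycan syndecan-3 (ENSMUSG00000025743, chr4:130792537-130826319, plus strand), was at 127, 129, 114, 96.4 and 130 CPM in controls and at 283, 182, 191, 178 and 223 CPM in irradiated pools. The groups did not overlap, as for 1.17% of all genes in this direction, and the irradiated pool was higher in 5 of 5 pairs, as for 6.75%. At 24 hours Sdc3 rose by 1.24 ± 0.18 on the log2 scale (SE) against the 5 controls (edgeR adjusted p = 0.0127), and the adjusted p was between 4.9e-06 and 0.0371 under every alternative run. Over the 5 times the difference was 0.81 ± 0.11 with an edgeR adjusted p of 0.15, which did not pass. DESeq2 called Sdc3 over the 5 times, at 24 hours and at 32 weeks. It also called Sdc1 and Prg4 at 24 hours and at 1 week, and Gpc3 at 32 weeks. The median log2 fold of the list was 0.23, 0.47, −0.06, −0.25 and 0.08.

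Among 9 other leucine-rich repeat relatives, 5 were measured above the filter and 0 passed, with at most 2 at an unadjusted p under 0.05 and 0 by DESeq2. Kera and Epyc, which lie beyond Lum on chromosome 10, and Optc, which lies beside Prelp on chromosome 1, had at most 2, 4 and 2 fragments in any library, so these neighbours of abundant family members were close to undetected. Ecm2, which lies beside Aspn on chromosome 13, was at 12.7 ± 3.17 CPM in controls and 8.47 ± 2.39 CPM in irradiated pools and was lower in 5 of 5 pairs, as were 5.73% of all genes, with −0.58 ± 0.20 (SE) over the 5 times (edgeR adjusted p = 0.337). Omd, between Aspn and Ogn, had 4 to 29 fragments per library. Its matched log2 folds were 0.38, −0.17, −1.22, 0.97 and −1.20 in order of time, the last from a pool with 4 fragments.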

How the data were processed

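RNA of 10 mouse whole-lung cell suspension pools (3 mice each) was sequenced after Clontech ultralow and Illumina NexteraXT preparation, per the labels' protocols. Trimmomatic 0.32, STAR 2.4.2a, Cufflinks 2.0.2 and Cuffdiff with build GRCm38.p4 are named, per the submitters' processing notes; what each of them did, the Cuffdiff version and the annotation used were not given in the sources used here. Expected counts, which estimate the fragments of a gene, and FPKM were deposited by the authors for 45786 genes, with 0 columns of no sample and 0 identical pairs of libraries. In each deposited count column, low values were spaced by a step of 0.576 to 1.38 (77.5% to 80.3% whole within a tolerance of 0.05), so they had been put on a common scale. Fragments given here are the deposited counts divided by that step. Symbols and coordinates came from GENCODE M21 (45137 identifiers matched, 649 not, with at most 0.168% of a library's counts).

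Counts were rounded, scaled by TMM (factors 0.933 to 1.09) and filtered with filterByExpr at a minimum count of 10, which left 15625 genes. Tests were 2-sided edgeR 4.0.16 quasi-likelihood tests (R 4.3.3) with Benjamini-Hochberg adjustment over all genes and a threshold of 0.05: over the 5 times with time as a block (4 residual degrees of freedom), each irradiated pool against the 5 controls (4), change with time (3) and slopes over log2 days (6). Each pool is 1 library, so p-values measure the spread between pools, biological and technical together, and a lone irradiated pool is assumed to vary like the controls, which differ in age. Matched folds compare 1 pool with 1 pool, at a prior count of 2, with no test, and their 95% intervals cover counting error only. PCR copies count as fragments, since no molecular identifiers are named. The labels pair the pools by time; deviations of pools of the same time correlated at 0.38, 0.0746, 0.245, 0.0568 and 0.165.

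The 8 genes, the lists and the tests were chosen with earlier results of these data known. Genes named are the 8, Col1a1 and Col3a1, up to 4 genes with the smallest p among those called in each list and comparison, or else the 2 with the smallest p over the 5 times, and the 10 and 5 genes most like Dcn and Bgn. Marker genes, genes that overlap or neighbour the 8, and the division of the fibroblast markers were named outside that rule, with their values seen. So were genes called by DESeq2 alone. Alternatives were FPKM in place of CPM for the matched folds and, added after the data were seen, for positions against the controls, RLE factors, total counts, no filter, counts divided by the step, DESeq2 1.42.0, limma 3.58.1 on log2 FPKM with a pseudocount of 1 or 0.1, no time block, and leaving out pools. The tests were checked on simulated data.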

Additional observations from a re-analysis of the deposited data

Results flagged for a closer look

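Fmod in the 4-week irradiated pool stood apart from the other 4 irradiated pools. Its level was 5.37 CPM against 12.7 to 14.3 CPM, and the gap to the nearest pool took up a share of 0.879 of the range of log2 CPM, above the critical value of 0.71 for 5 pools. This was 1 of 16 groups of 5 pools examined (8 genes, 2 treatments), and chance flags about 1 in 20.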

How the results depend on the processing

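Counts of genes past the threshold moved with the processing, and the cause was not tested. Over the 5 times the count was 0, also with no replicate block (0), and became 1 with no filter, 251 with DESeq2 and 1 with limma at either pseudocount. At 24 hours it was 165, and 260 with no filter, 540 with DESeq2, 98 and 101 with limma at pseudocounts of 1 and 0.1, and 66 to 169 with a control left out (66 without the 1-week control). At 1 week it was 3, and 0 with total count scaling, 31 with no filter, 240 with DESeq2, 68 and 12 with limma, and 0 (without the 1-week or the 32-week control) to 12 (without the 24-hour control), with 1 without the 4-week and 9 without the 12-week control. At 4 weeks it was 9, and 30, 88, 71 and 21 under no filter, DESeq2 and limma, and 5 (without the 1-week control) to 15 (without the 4-week control). At 12 weeks it was 0, with 1669 at an unadjusted p under 0.05, and 37, 222, 56 and 17 in the same order, and 0 to 2 with a control left out (2 without the 12-week or the 32-week control, 1 without the 4-week control). At 32 weeks it was 129, and 65 with total count scaling, 365 with no filter, 831 with DESeq2, 49 with limma at 0.1, and 8 (without the 1-week control) to 299 (without the 4-week control), with 37 without the 24-hour and 84 without the 12-week control. Change with time had 0, and 1 with no filter and 60 with DESeq2. The control slope had 0, and 26 with DESeq2.

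Of the 8 genes, DESeq2 called Dcn, Lum, Bgn and Ogn at 32 weeks, Ogn at 4 weeks and Dcn for the change with time, and limma called 0 at any time. Of all 15625 genes, DESeq2 called 831, 88 and 60 in these comparisons. Since the 8 genes were chosen on this contrast, nothing is read from these calls. The control slope of Ogn, −0.01, was 0.0101 with total counts, 0.0706 without the 24-hour and 0.00467 without the 12-week control. That of Prelp, 0.01, was −0.00601 without the 1-week and −0.00314 without the 32-week control. Of 40 matched folds, 4 turned sign with total counts and 5 with FPKM, all of them at most 0.153 in size, and 14 left their counting interval with FPKM. Limma on FPKM moved the median of all genes by up to 0.197, at 32 weeks with a pseudocount of 0.1. In FPKM 0 of the 8 genes lay below all controls at 12 weeks, where CPM gave 1, and 1 lay above at 32 weeks, where CPM gave 0.

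Depth limits Fmod, Aspn and Lum most, and with 1 pool per time no difference at a single time has a replicate behind it.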
